A study of Mus musculus with 12 samples.

Results

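The replication-dependent histone genes were described in hematopoietic stem and progenitor cells (HSPCs), sorted from mouse bone marrow as lineage-negative, CD127-negative, c-kit-positive and Sca-1-positive cells. Members were the rows whose gene symbol begins with Hist1h, Hist2h, Hist3h or Hist4h, or with the newer stems H1f, H2ac, H2bc, H3c or H4c and a number. They came to 66 of 20792 listed genes, of which 8 were H1, 20 H2A, 14 H2B, 12 H3 and 12 H4 genes. The symbol rule also took in H1f0 and H1f10, linker histones that are made outside S phase as well, the testis genes H1f6, H2ac1 and H2bc1, and H2ac5-ps, H2ac14 and Hist1h2al, which have no coding sequence in the GENCODE vM21 annotation. The symbols H2aw, H2bu2 and H4f16, which this annotation calls Hist3h2a, Hist3h2ba and Hist4h4, fell outside the rule.

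All mice were male and wild type, and the high-salt diet (HSD) or normal diet (ND) ran for 8 weeks from 6 weeks of age. HSD was chow with 8% NaCl and drinking water with 1% NaCl, and ND was chow with 0.5% NaCl. The 4 groups had 3 libraries each. HSD ICHD7 and ND ICHD7 were taken 7 days after intracerebral hemorrhage (ICH), made by injecting the animal's own blood into the brain, and HSD and ND had no ICH. After ICH every mouse received ND, so HSD ICHD7 stands for HSD before and ND after the hemorrhage. HSD and ND libraries pooled 3 animals each, and no pool size was found for the ICH groups. P-values therefore measure the spread between libraries.

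Reads in listed genes ranged between 12286357 and 27491973 in HSD ICHD7, 12367859 and 15058511 in ND ICHD7, 8678304 and 15469971 in HSD and 13874826 and 14594254 in ND. Values are in CPM, the reads of a gene scaled to a common library size. Of the 10 HSPC markers, Kit ranged between 329 and 487 CPM over the 12 libraries and Cd34 between 215 and 392 CPM. Ly6a, which encodes the sorting antigen Sca-1, was only at 2.42 to 6.72 CPM. Mean HSPC marker level was 97.0 CPM in HSD ICHD7 replicate 3 and lay between 146 and 182 CPM elsewhere. HSD replicate 2 and ND replicate 1 had mean levels of the 18 macrophage markers of 60.2 and 33.9 CPM, against 6.07 to 13.5 CPM elsewhere. Genes without any read numbered 2 to 29 in libraries with ICH and 1393 to 1755 in those without it. The 17 genes that blood cells do not use had a median of 0 to 0.0337 CPM per kb without ICH. With ICH it was 0.206, 0.186 and 0.137 CPM per kb in HSD ICHD7 and 0.363, 0.345 and 0.479 in ND ICHD7. By this measure the diet groups with ICH did not overlap. Whether the libraries with ICH were prepared apart from those without it was not found in the sources used here, so ICH and any difference in preparation cannot be told apart.

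Histones package DNA. H2A, H2B, H3 and H4 form the core around which DNA is wound, and H1 binds the linker between cores. Most of their genes lie in clusters and are transcribed in S phase, when newly copied DNA must be packaged. Their mRNAs usually lack a poly(A) tail and end in a short stem-loop that the protein Slbp binds, which ties their stability to DNA synthesis. Bone marrow HSPCs include resting stem cells and dividing progenitors.

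Of the members, 55 lie on chromosome 13, 9 on chromosome 3, and H1f0 and H1f10 alone on chromosomes 15 and 6. The stem-loop is shown because it is the feature that sets these mRNAs apart. A search of the annotated GRCm38 transcripts for the histone mRNA stem-loop consensus matched 41 of 66 members (4 H1, 10 H2A, 7 H2B, 9 H3 and 11 H4) and 27 other listed genes, 0.332% of 20511 genes with a transcript in all. Of the 25 members without a match, 14 have annotated transcripts that stop under 20 bases after the stop codon and 3 have no coding sequence, so no match says only that these letters are not in the annotated transcript. The sites below lie at chr13:23621775-23621804 (minus strand, H1f4), chr13:21810891-21810920 (plus, Hist1h2ao), chr13:23573758-23573787 (minus, H2bc7), chr13:23745040-23745069 (minus, H3c3), chr13:23761883-23761912 (minus, H3c1), chr3:96247320-96247349 (plus, H3c14), chr13:23760793-23760822 (minus, H4c1) and chr13:21831791-21831820 (minus, Hist1h4n). Capitals mark the stem-loop.
H1f4: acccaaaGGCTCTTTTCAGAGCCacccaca
Hist1h2ao: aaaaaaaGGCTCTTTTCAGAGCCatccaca
H2bc7: acccaaaGGCTCTTTTCAGAGCCacctacc
H3c3: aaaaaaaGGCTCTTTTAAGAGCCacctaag
H3c1: aaccaaaGGCTCTTTTCAGAGCCacacacg
H3c14: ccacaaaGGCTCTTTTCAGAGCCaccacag
H4c1: aaccaaaGGCCCTTCTCAGGGCCgcccaca
Hist1h4n: aactaaaGGCCCTTTTCAGGGCCatccaat
The stem-loop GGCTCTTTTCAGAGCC was in 22 members, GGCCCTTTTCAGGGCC in 6 and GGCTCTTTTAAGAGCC, the form in H3c3, in 6.

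Promoters are shown because members are described by class. RefSeq windows of the 250 bases before the start site (GRCm38.p6) were found for 50 members and searched on both strands. CCAAT was in 14 of 14 H2A, 9 of 9 H2B, 8 of 10 H3, 6 of 8 H1 and 3 of 9 H4 windows, against 34.5% of all 27025 promoters. TATAAA was in 24 of 50 member windows, against 13% of all promoters. AAACACA, a motif known from H1 promoters, was in 5 of 8 H1 windows, 2 H2A and 1 H2B window and no H3 or H4 window, against 6.22% of all promoters. ATTTGCAT, the octamer known from H2B promoters, was in 4 H2B and 6 H2A windows and none of the others, against 1.61% of all promoters. Windows of neighbouring H2A and H2B genes overlap, so their counts are not independent. The windows of H1f5 (chr13:21780626-21780875, minus strand), H3c3 (chr13:23745522-23745771, minus strand) and H2bc12 (chr13:22035571-22035820, plus strand) are given with all 4 motifs in capitals on either strand.
H1f5: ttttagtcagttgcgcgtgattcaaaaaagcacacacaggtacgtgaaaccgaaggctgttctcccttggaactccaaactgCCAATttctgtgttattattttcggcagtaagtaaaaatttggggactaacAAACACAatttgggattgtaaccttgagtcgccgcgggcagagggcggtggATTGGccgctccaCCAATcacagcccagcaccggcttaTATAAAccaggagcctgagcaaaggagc
H3c3: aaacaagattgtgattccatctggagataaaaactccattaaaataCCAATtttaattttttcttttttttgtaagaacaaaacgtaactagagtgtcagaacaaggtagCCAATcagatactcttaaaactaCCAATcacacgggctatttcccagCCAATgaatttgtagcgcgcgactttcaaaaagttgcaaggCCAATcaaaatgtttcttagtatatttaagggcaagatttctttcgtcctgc
H2bc12: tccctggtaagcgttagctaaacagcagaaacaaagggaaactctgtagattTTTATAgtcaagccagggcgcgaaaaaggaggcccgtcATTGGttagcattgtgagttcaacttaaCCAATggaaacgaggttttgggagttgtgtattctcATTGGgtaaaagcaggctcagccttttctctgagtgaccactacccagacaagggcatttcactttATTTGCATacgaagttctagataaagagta
H1f5 held TATAAA on its own strand, and H2bc12 held it only on the opposite strand, printed as TTTATA. Both had several CCAAT matches counting both strands, and H3c3 held CCAAT matches without TATAAA.

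Many members are near-identical copies, so their counts cannot be fully separated. Of the 150-base windows of each member's transcripts, the same length as the reads, at least 50% were also found in another gene for 24 members and none was shared for 12. H2ac18, H2ac19, H3c13 and H3c14 shared 100% of their windows, H3c15 59.4% and Hist1h2ao 91.5%. These levels are uncertain as single genes, most of all for H2ac18, H2ac19, H3c13 and H3c14. H1f5, H1f3, H1f2 and H1f1 shared none, H3c3 shared 15.6%, H3c1 23.4%, H1f4 19.5% and H2bc7 10.6%.

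Levels spread widely within each class. Per kb of coding sequence, averaged over the 12 libraries, H2A genes ranged between 7.82 and 4254 CPM per kb with a median of 679, and H2B genes between 13.9 and 1728 with a median of 715. H3 genes ranged between 265 and 1508 CPM per kb (median 767), H4 genes between 100.4 and 2169 (median 478) and H1 genes between 0.469 and 1469 (median 493). Hist1h2ao had the highest level and, in CPM, was at 1745, 1648 and 1732 in HSD ICHD7, 1369, 1507 and 1594 in ND ICHD7, 1638, 2221 and 1685 in HSD and 1746, 1531 and 1495 in ND. The leading H4 gene was H4c4, at 640, 632 and 1153 CPM in HSD ICHD7, 548, 994 and 585 in ND ICHD7, 611, 557 and 641 in HSD and 568, 586 and 526 in ND. Its 2 highest libraries, HSD ICHD7 replicate 3 and ND ICHD7 replicate 2, were also the 2 highest for H2ac18, H2ac19 and H2ac20, which were named after their values were seen. Averaged over all 12 libraries, H2bc12, H2bc15 and H2bc11, the H2B genes highest per kb of exon, were at 653, 342 and 295 CPM. By the same rule the others named for level were H1f2 at 934 CPM and H1f1 at 332 CPM, H2ac4 at 1282 CPM and H2ac13 at 1083 CPM, H3c2 at 615 CPM, and H4c8 at 260 CPM and H4c12 at 173 CPM.

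Summed over all 66 members, histone mRNA came to 23581, 22803 and 28896 CPM in HSD ICHD7 and 18717, 21690 and 21928 CPM in ND ICHD7. Without ICH the sums were 22227, 26535 and 23026 CPM in HSD and 22694, 20257 and 19948 CPM in ND. In summed CPM the diet groups did not overlap with ICH and overlapped without it, where ND replicate 1 exceeded HSD replicate 1. As a share of the CPM of all listed genes the members took 2.70% ± 0.20 in HSD ICHD7 and 2.31% ± 0.18 in ND ICHD7, and 2.54% ± 0.18 in HSD and 2.24% ± 0.09 in ND (SD, n = 3 each). By this share the diet groups overlapped neither with ICH nor without it. Without ICH the shares were 2.38%, 2.74% and 2.51% in HSD and 2.33%, 2.22% and 2.15% in ND. The ratio of mean sums was 1.21 for HSD ICHD7 over ND ICHD7, 1.14 for HSD over ND, 1.05 for HSD ICHD7 over HSD and 0.991 for ND ICHD7 over ND. In bulk libraries a larger share of cells in S phase and more histone mRNA per cell cannot be told apart. Of the 65 members with enough reads to be tested, 40 had their highest value of all 12 libraries in HSD ICHD7 replicate 3 and 13 in HSD replicate 2, against 23.7% and 14.9% of 16305 genes averaging over 1 CPM.

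By class, H1 sums were 3317, 2903 and 3951 CPM in HSD ICHD7 and 2482, 2599 and 2703 CPM in ND ICHD7, and 3004, 3354 and 2940 CPM in HSD and 2738, 2546 and 2466 CPM in ND. H1 was a class whose diet groups overlapped neither with ICH nor without it, with ratios of means of 1.31 and 1.20. H4 sums were 2064, 2108 and 3217 CPM in HSD ICHD7 and 1786, 2064 and 1961 CPM in ND ICHD7, and 1957, 2126 and 2084 CPM in HSD and 2115, 2027 and 1880 CPM in ND. HSD ICHD7 replicate 3 stood far above the other H4 sums, and HSD and ND overlapped, with a ratio of 1.02. For H2A, H2B and H3 the ratios were 1.15, 1.18 and 1.28 for HSD ICHD7 over ND ICHD7, and 1.18, 1.06 and 1.16 for HSD over ND. In summed CPM the diet groups with ICH overlapped for H2A and not for H2B or H3. Without ICH they overlapped for H2B and H3 and not for H2A. As shares of the CPM of all listed genes, 2 of these differed. H2B then overlapped with ICH (0.427% in HSD ICHD7 replicate 3 and 0.442% in ND ICHD7 replicate 3). H3 narrowly did not overlap without ICH (lowest HSD 0.4278%, highest ND 0.4271%).

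**Figure D1:**
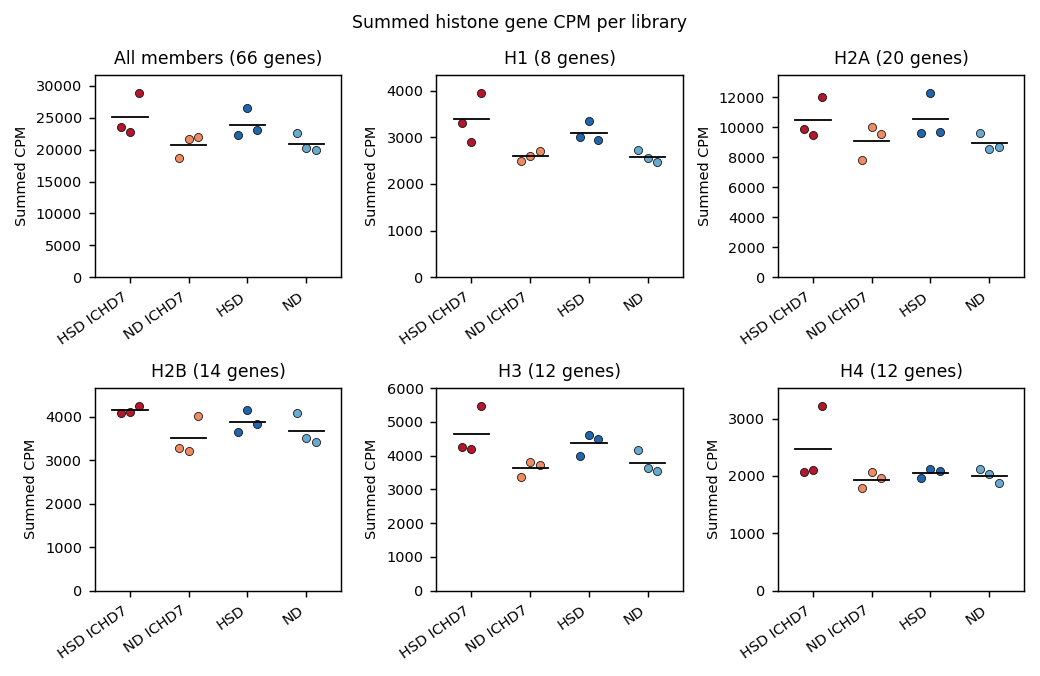
Summed CPM per library of all members and of each histone class, by group; each point is 1 library and each line a group mean of 3. H1 sums are higher in HSD than in ND in every library, both with ICH (2903 to 3951 against 2482 to 2703 CPM) and without it (2940 to 3354 against 2466 to 2738 CPM).

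The comparison of HSD with ND without ICH asks what the diet alone did to these genes. Of 65 members, 56 had a higher mean in HSD, against 54.6% of the 16787 genes tested, and the median log2 fold change of members was 0.11, against 0.017 over all genes. By limma on log2(CPM + 0.5), 21 members (32.3%) had an unadjusted p under 0.05 with higher values in HSD, where 3.65% of all genes did, and no member had one with lower values, where 3.28% did. No member passed an adjusted p under 0.05, where 0.0774% of all genes did, and edgeR's quasi-likelihood test likewise called 0 with an adjusted p under 0.05 and 20 with an unadjusted p under 0.05. The values of the 2 diets did not overlap for 16 members, all higher in HSD, where 7.07% of genes were higher without overlap and 5.75% lower. The count of 21 was 12 without ND replicate 3, 13 without ND replicate 2 and 4 in a fit that shared its spread over all 12 libraries. It was 26 without ND replicate 1 and HSD replicate 2, the libraries high in macrophage markers. Of 11 tested mature neutrophil genes 10 had lower means in HSD, 2 with an unadjusted p under 0.05, with a median of -0.55. Their mean level was 9.65 CPM in ND replicate 3, 3.42 and 4.72 CPM in ND replicates 1 and 2, and 3.50 to 4.05 CPM in HSD. The part of these markers in the histone differences was not tested.

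The classes differed in how many members reached that level. It was reached by 6 of 7 tested H1 genes, 11 of 20 H2A genes and 4 of 12 H3 genes, and by none of 14 H2B and none of 12 H4 genes. The median log2 fold change was 0.26 for H1, 0.26 for H2A, 0.076 for H2B, 0.077 for H3 and 0.025 for H4. Whether the classes differ from each other was not tested. The H1 count was 3 without HSD replicate 2, ND replicate 2 or ND replicate 3, and the H2A count was 7 without ND replicate 2 and 6 without ND replicate 3. By position, 6 of the 9 members on chromosome 3 and 14 of the 54 tested on chromosome 13 reached it, where 3.65% of all genes did. Their median log2 fold changes were 0.33 and 0.085. The 6 include H3c13, H3c14, H3c15 and H2ac19, which share 59.4% to 100% of their windows with other genes. They are therefore not independent measurements, and position was not tested.

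**Figure D2:**
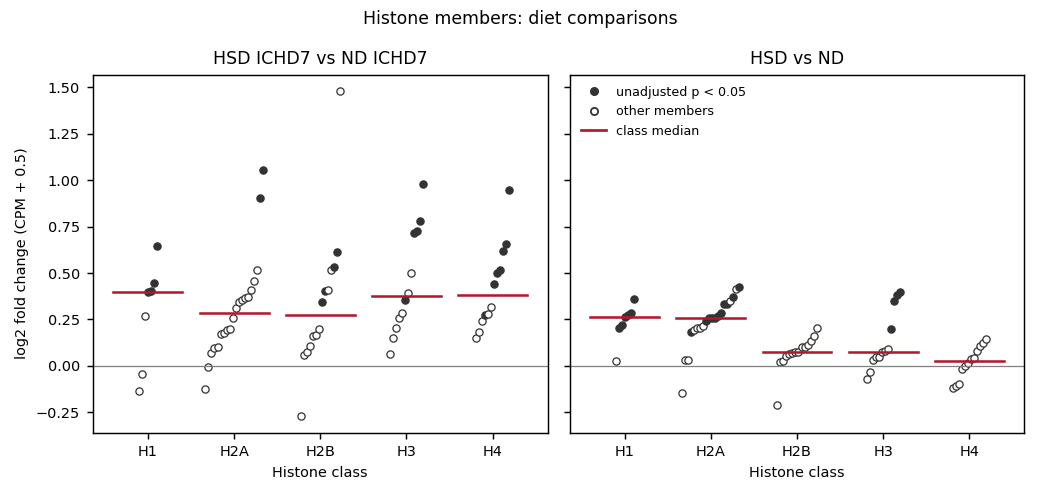
Log2 fold change of each tested member by histone class for HSD ICHD7 over ND ICHD7 (left) and HSD over ND (right), on the log2(CPM + 0.5) scale; filled points have an unadjusted p under 0.05 and red lines are class medians. Without ICH the filled points are in H1 (6), H2A (11) and H3 (4), and with ICH in all 5 classes, with 7 of 12 in H4.

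H1f5 encodes a linker histone of dividing cells. It had 309, 357 and 348 CPM in HSD and 294, 257 and 241 CPM in ND, so that every HSD library was above every ND library. Its log2 fold change was 0.36 ± 0.09 (SE) with an unadjusted p of 0.00169 and a limma adjusted p of 0.325. Without ND replicate 1 and HSD replicate 2 it was 0.40 with an adjusted p of 0.0222. H1f4, another linker histone, had 685, 736 and 691 CPM in HSD and 595, 577 and 571 CPM in ND, again without overlap, with a log2 fold change of 0.28 ± 0.07 (limma adjusted p = 0.368). H1f3, H1f2 and H1f1 had log2 fold changes of 0.29, 0.22 and 0.21. H1f4, H1f3 and H2ac12 were named after their values were seen.

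H3c14 lies on chromosome 3 (chr3:96246685-96248509, plus strand, GRCm38) and had 774, 971 and 850 CPM in HSD and 722, 656 and 610 CPM in ND. Its log2 fold change was 0.38 ± 0.10 (limma adjusted p = 0.352). The neighbouring copies H3c13 and H3c15, which share windows with it and are only partly separable, had 0.40 ± 0.11 and 0.35 ± 0.09. The copies diverged in HSD ICHD7 replicate 3, with 526 CPM for H3c13 and 973 CPM for H3c15. Summed, these 3 genes came to 2010 ± 239 CPM in HSD and 1543 ± 135 CPM in ND (SD, n = 3 each), and every HSD library was above every ND library. H3c13 and H3c14 had adjusted p-values of 0.0394 and 0.0434 by limma without ND replicate 1 and HSD replicate 2.

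Among the H2A genes Hist1h2an had 147, 176 and 131 CPM in HSD and 119, 120 and 110.1 CPM in ND, without overlap, and a log2 fold change of 0.37 ± 0.10 (limma adjusted p = 0.368). Most H2A genes sit head to head with an H2B gene, and 13 such neighbours had starts 176 to 306 bases apart. The H2A gene had the larger log2 fold change in 12 of the 13, with medians of 0.27 for H2A and 0.076 for H2B. At an unadjusted p under 0.05, 8 H2A genes and no H2B gene were higher in HSD, where 3.65% of all genes were. With ICH the H2A gene had the larger one in 8 of the 13, with medians of 0.35 for H2A and 0.20 for H2B. At that level 1 H2A gene and 3 H2B genes were higher in HSD ICHD7, where 5.42% of all genes were, and 1 of 13 is near that share. H2ac12 and H2bc12, which share the promoter printed for H2bc12, had 0.26 and 0.076. H2ac12 had 209, 245 and 216 CPM in HSD and 194, 194 and 170.4 CPM in ND, without overlap. H2bc12 had 661, 717 and 700.2 CPM in HSD and 743, 618 and 617 CPM in ND, with ND replicate 1 the highest of the 6. The H2A copies share much of their sequence with each other, so the 13 are not independent measurements. The 12 without ICH include a near tie, H2ac7 and H2bc7, at 0.2047 and 0.2029. They also include neighbours with a low gene, as H2ac1, H2bc1, H2ac5-ps and H2bc21 averaged 3.03 to 8.47 CPM. All of these but H2bc7 were named after their values were seen.

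After ICH the comparison of HSD ICHD7 with ND ICHD7 asks whether the earlier diet still marked the cells. Of 65 members 60 had a higher mean in HSD ICHD7, against 45.8% of 20079 genes, and the median log2 fold change was 0.34, against -0.031 over all genes. By limma 22 members (33.8%) had an unadjusted p under 0.05 with higher values in HSD ICHD7, where 5.42% of all genes did, and no member had one with lower values, where 10.2% did. No member had an adjusted p under 0.05, as was so for 0% of all genes, and edgeR's quasi-likelihood test called 0 with an adjusted p under 0.05 and 25 with an unadjusted p under 0.05. Groups did not overlap for 22 members, all higher in HSD ICHD7, where 10% of genes were higher without overlap and 13.3% lower. The count was 11 without ND ICHD7 replicate 2 and 14 without ND ICHD7 replicate 1. Without HSD ICHD7 replicate 3, the library low in HSPC markers, it was 15 and the median was 0.20. Without that library and ND ICHD7 replicate 2 it was 27 with a median of 0.19. With the background of genes that blood cells do not use subtracted it was 8. That background was at most 0.479 CPM per kb of exon, against 12-library means of 236 for H3c3 and 421 for H1f5. The fall is therefore no measure of how much histone signal was background, and its cause was not tested. Of 17 such genes tested, 16 had lower means in HSD ICHD7, with a median of -0.57. An unadjusted p under 0.05 was reached by 10 of them, where 10.2% of all genes were lower. Cell type markers moved in the same comparison. Of 10 HSPC markers 9 had lower means in HSD ICHD7, 4 of them with an unadjusted p under 0.05 and 6 without overlap, with a median of -0.45 and mean levels of 97.0 to 148 CPM in HSD ICHD7 and 158 to 159 CPM in ND ICHD7. Of 9 tested B cell genes 7 had lower means, 4 with an unadjusted p under 0.05, with a median of -0.57. The part of these markers in the histone differences was not tested.

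By class, 4 of 7 H1, 2 of 20 H2A, 4 of 14 H2B, 5 of 12 H3 and 7 of 12 H4 genes reached an unadjusted p under 0.05, with medians of 0.40, 0.28, 0.27, 0.37 and 0.38. The H4 count was 3 without HSD ICHD7 replicate 3 and 0 without ND ICHD7 replicate 2. On chromosome 3 none of 9 members reached it, with a median of 0.19. On chromosome 13 it was 22 of 54, with a median of 0.37, where 5.42% of all genes reached it. The libraries of this comparison were all different from those of HSD and ND. Members higher at an unadjusted p under 0.05 in both were H1f1, H1f3, H1f4 and H1f5. These are 4 of the 21 without ICH and 4 of the 22 with ICH, and 51 of 65 members had a higher mean in both. As 56 and 60 of the 65 had higher means in the 2 comparisons taken singly, many would be shared even if these were unrelated. The overlap was not counted over all genes, so it does not show that the comparisons repeat each other.

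H3c3 (chr13:23744973-23745602, minus strand, GRCm38), a core histone gene, had 167, 227 and 206 CPM in HSD ICHD7 and 128, 102 and 132 CPM in ND ICHD7. Without ICH it had 134, 136 and 147 CPM in HSD and 149, 136 and 120 CPM in ND. Only the HSD ICHD7 libraries stood above all the others. The log2 fold change of HSD ICHD7 over ND ICHD7 was 0.73 ± 0.15 (unadjusted p = 0.00068, limma adjusted p = 0.222), and the adjusted p was 0.0202 with all 12 libraries in 1 fit. H3c1 (chr13:23761853-23762386, minus strand) had 126, 204 and 249 CPM in HSD ICHD7 and 97.5, 80.6 and 106 CPM in ND ICHD7, without overlap. Its log2 fold change was 0.98 ± 0.22 (limma adjusted p = 0.241, or 0.0335 with all 12 libraries in 1 fit).

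H1f5 had 399, 345 and 438 CPM in HSD ICHD7 and 267, 189 and 309 CPM in ND ICHD7, again without overlap. Its log2 fold change was 0.65 ± 0.18 (limma adjusted p = 0.256). H2bc7 had 62.4, 63.3 and 74.7 CPM in HSD ICHD7 and 47.8, 49.7 and 53.2 CPM in ND ICHD7, with a log2 fold change of 0.40 ± 0.11 (limma adjusted p = 0.256). H1f3 and H1f1 had log2 fold changes of 0.45 and 0.40. For 13 members HSD ICHD7 replicate 3 exceeded the next highest of the 12 libraries by over 1.5 times. The most extreme was the testis gene H2bc1, named after its values were seen, at 5.53, 6.21 and 47.8 CPM in HSD ICHD7 and 3.81, 3.05 and 5.36 CPM in ND ICHD7.

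**Figure D3:**
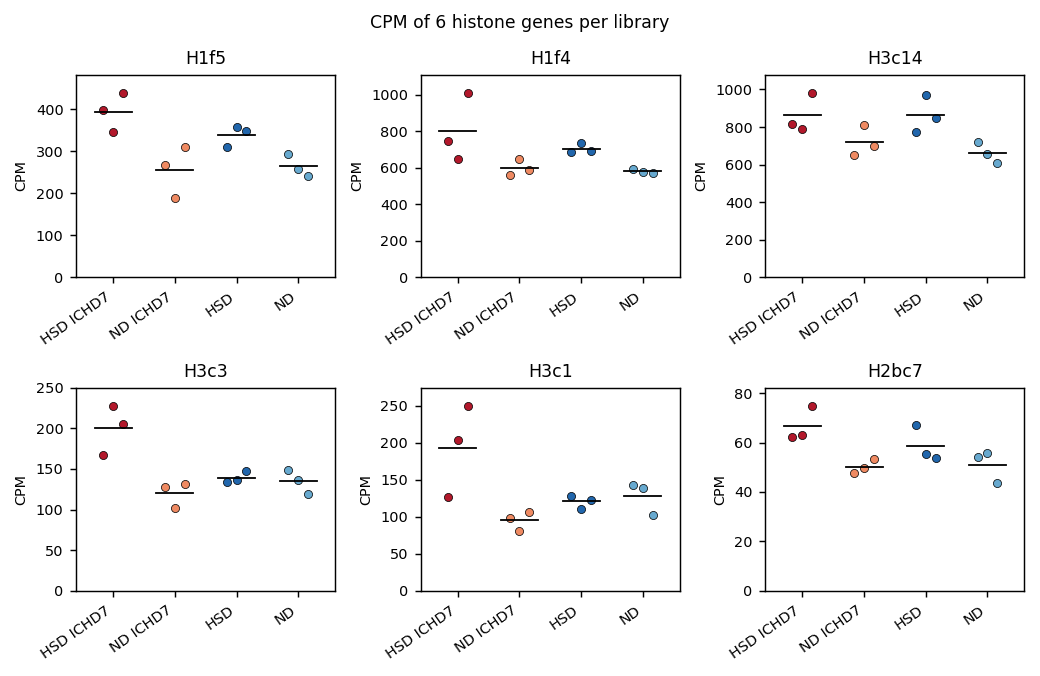
CPM per library of H1f5, H1f4, H3c14, H3c3, H3c1 and H2bc7 by group; each point is 1 library and each line a group mean of 3. H3c3 lies between 167 and 227 CPM in HSD ICHD7 and between 102 and 149 CPM in the other 9 libraries, whereas H1f5 is higher in HSD than in ND with ICH and without it.

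The comparison of ND ICHD7 with ND asks what ICH did on the normal diet. The ND libraries here are those of HSD against ND, so the comparisons are not independent. Means were lower in ND ICHD7 for 46 of 65 members, where 49.2% of genes were lower, with a median log2 fold change of -0.094, against 0.0055 over all 19387 genes. Groups did not overlap for 3 members, all lower in ND ICHD7, where 14.3% of genes were lower without overlap and 19.1% higher. With an unadjusted p under 0.05, 7 members (10.8%) had lower values, near the 10.3% of all genes that did, and none had higher ones, where 18.1% of genes did. No member had a limma adjusted p under 0.05, where 16.7% of all genes did, and edgeR's quasi-likelihood test called 0, with 6 lower and 1 higher at an unadjusted p under 0.05. The count of 7 was 21 without ND ICHD7 replicate 3, 4 without ND ICHD7 replicate 2 and 0 without ND replicate 1. Of the 7, 4 were H4 genes and none H1 or H2B.

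H3c1 had 97.5, 80.6 and 106 CPM in ND ICHD7 and 143, 139 and 102 CPM in ND, a log2 fold change of -0.42 ± 0.14 (limma adjusted p = 0.0721). ND replicate 3 lay among the ND ICHD7 values, and without it the adjusted p was 0.011. H4c1, which encodes the core histone H4, had 95.4, 60.4 and 96.5 CPM in ND ICHD7 and 117, 103 and 112 CPM in ND, without overlap, and a log2 fold change of -0.43 ± 0.16 (limma adjusted p = 0.11). H4c2 and Hist1h4n had -0.33 ± 0.13 and -0.37 ± 0.15. ND ICHD7 replicate 2 was the lowest of the 6 libraries for H4c1, H4c2 and Hist1h4n.

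The comparison of HSD ICHD7 with HSD sets libraries with ICH against those without it after the high-salt diet, and uses the HSD libraries of the diet comparison. HSD ICHD7 mice also received ND after the ICH, so ICH and the change of diet cannot be told apart here. By limma 1 member, H3c3, rose with an adjusted p under 0.05 and none fell, where 5.31% of 18082 genes rose and 1.26% fell. Its log2 fold change was 0.51 ± 0.12 (adjusted p = 0.0377). The call was lost, with log2 fold changes of 0.42 to 0.64 and adjusted p-values of 0.0606 to 0.18, when any 1 of the 6 libraries was left out. Without HSD ICHD7 replicate 1, H3c1 passed instead (0.90, adjusted p = 0.0347). At an unadjusted p under 0.05 it was joined by H3c1 (0.63 ± 0.21) and Hist1h2al (0.62), a pseudogene named after its values were seen, where 11.8% of all genes were higher, and no member was lower, where 9.73% of genes were. Means were higher in HSD ICHD7 for 46 of 65 members, where 49.3% of genes were higher, and 4 members were higher without overlap, where 14.2% of genes were and 14.5% were lower. The median over members was 0.16, against -0.0052 over all genes, and without HSD ICHD7 replicate 3 it was -0.036. The count of 3 was 11 without HSD ICHD7 replicate 2, 8 without HSD ICHD7 replicate 1 and 1 without HSD replicate 2. Of 11 tested mature neutrophil genes all had higher means in HSD ICHD7, 8 with an unadjusted p under 0.05, of which 4 rose with a limma adjusted p under 0.05. Their median was 0.77 and their mean level 6.56 to 7.49 CPM in HSD ICHD7 and 3.50 to 4.05 CPM in HSD. All 10 HSPC markers had lower means, 7 with an unadjusted p under 0.05 and 1 with a limma adjusted one, with a median of -0.53 and mean levels of 97.0 to 148 CPM in HSD ICHD7 and 165 to 182 CPM in HSD. The part of these markers in the histone values was not tested.

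**Figure D4:**
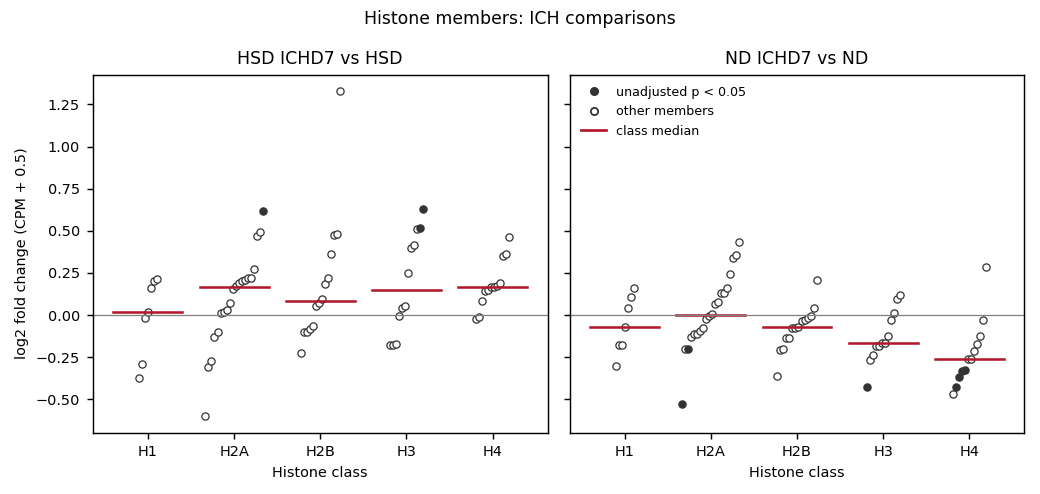
Log2 fold change of each tested member by histone class for HSD ICHD7 over HSD (left) and ND ICHD7 over ND (right), on the log2(CPM + 0.5) scale; filled points have an unadjusted p under 0.05 and red lines are class medians. H4 medians are 0.17 on the left and -0.26 on the right.

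The interaction tests whether the diet difference with ICH exceeded that without it. Because HSD ICHD7 mice received ND after the ICH, it too cannot tell ICH apart from the change of diet. No member had an adjusted p under 0.05 by limma, as was so for 0% of 20393 genes, and edgeR's quasi-likelihood test called 0. With an unadjusted p under 0.05, 9 members had positive values by limma and 11 by edgeR, against 2.22% of all genes by limma, and none had a negative one by limma, against 6.13%. They were 5 of 12 H4, 3 of 12 H3 and 1 of 20 H2A genes. The values were 0.68 ± 0.18 for H3c3 (adjusted p = 0.485), 1.05 ± 0.28 for H3c1 (0.496), 0.53 ± 0.21 for Hist1h4n (0.552) and 0.38 ± 0.15 for H4c8 (0.556). The count was 3 without HSD ICHD7 replicate 3, ND ICHD7 replicate 2, ND replicate 1 or HSD replicate 1, and 15, 17 and 15 without HSD ICHD7 replicate 1, HSD ICHD7 replicate 2 and ND ICHD7 replicate 3.

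Genes that act with histones were counted from lists, and genes named from them were picked after their values were seen. Of 40 S phase genes, 1 was higher in HSD than in ND at an unadjusted p under 0.05, where 3.65% of all genes were, Dbf4, the activator of a replication kinase (0.24), and the list's median was 0.047. Of 30 G2/M genes 25 were higher, with a median of 0.27, and Ube2c, a ubiquitin-conjugating enzyme of mitosis, rose to 46.7, 47.3 and 52.2 CPM in HSD, against 27.9, 27.2 and 29.2 CPM in ND (0.78, limma adjusted p = 0.00526). In HSD ICHD7 against ND ICHD7, 15 S phase and 29 G2/M genes were higher at that level, where 5.42% of all genes were, with medians of 0.28 and 0.47. In ND ICHD7 against ND, 25 S phase genes were lower at that level, where 10.3% of all genes were, and 13 fell with a limma adjusted p under 0.05, where 3.23% of all genes did. Among them Tyms, which makes thymidylate, fell to 41.3, 38.5 and 37.3 CPM in ND ICHD7, against 51.8, 53.4 and 51.4 CPM in ND (adjusted p = 0.00415). The part of cell cycle stage in the histone differences was not tested.

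**Figure D5:**
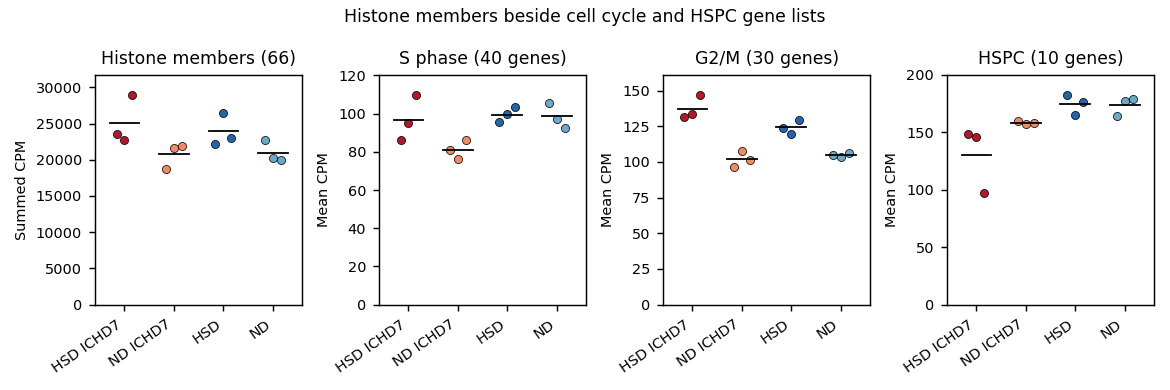
Summed CPM of the 66 members and mean CPM of the S phase, G2/M and HSPC gene lists per library, by group; each point is 1 library and each line a group mean of 3. G2/M levels are 120 to 129 CPM in HSD and 103 to 106 CPM in ND, while S phase levels of HSD (95.6 to 103 CPM) and ND (92.4 to 106 CPM) overlap.

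Of 12 tested genes on a list of histone variants, 4 were higher in HSD than in ND at an unadjusted p under 0.05, against 3.65% of all genes. They were H1f0 (also a member), H2az1, H2ax and Cenpa. With ICH 3 of 12 were higher in HSD ICHD7 than in ND ICHD7 at that level, against 5.42% of all genes. H2ax, whose phosphorylation marks DNA breaks, had 155, 189 and 164 CPM in HSD and 141, 126 and 120 CPM in ND, without overlap (0.39, limma adjusted p = 0.264). In HSD ICHD7 it had 160.5, 178 and 229 CPM, against 127, 134 and 138 CPM in ND ICHD7 (0.49, limma adjusted p = 0.256). Cenpa, the H3 variant of centromeres, had log2 fold changes of 0.47 without ICH and 0.41 with ICH. Of 27 genes of histone mRNA transcription and processing, 2 were higher in each diet comparison at an unadjusted p under 0.05, against 3.65% of all genes without ICH and 5.42% with it, and Slbp itself had -0.14 without ICH and 0.13 with ICH. Of 24 histone chaperones 1 (4.17%) was higher in HSD than in ND at that level, near the 3.65% of all genes. In HSD ICHD7 against ND ICHD7 4 were higher, where 5.42% of all genes were. Among the 4 were Asf1b (0.61) and Chaf1a (0.36), which deliver new H3 and H4 to replicated DNA. In ND ICHD7 against ND, 9 of the 27 processing genes and 8 of the 24 chaperones were lower at an unadjusted p under 0.05, against 10.3% of all genes. With a limma adjusted p under 0.05, 2 and 3 of them fell, against 3.23% of all genes, among them Chaf1a (-0.39, adjusted p = 0.0133).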

How the data were processed

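RNA of 12 HSPC libraries, made with the SMART-Seq Stranded Kit and sequenced as 150-base read pairs, was aligned by the authors with Rsubread to mm10 and counted with featureCounts (strand setting and annotation not given in the sources used here). The deposited values are CPM per gene on TMM-adjusted library sizes from edgeR 3.24.3. Whole reads were recovered from the CPM steps (100% of values whole), less certainly for HSD replicate 2. Genes reaching 10 reads in 3 or more of the libraries compared were tested with limma 3.58.1 (R 4.3.3) as log2(CPM + 0.5) with a mean-variance trend, in the 2 groups compared (4 for the interaction), and Benjamini-Hochberg adjustment over all tested genes. Fold changes are on that scale. H1f6 was not tested. edgeR 4.0.16 on recovered reads, other pseudocounts, filters and scalings, a replicate block, 1 fit of all libraries and left-out libraries were alternatives. The code was tested on simulated data. Named members are the 3 per class highest per kb of exon and, in each comparison, those with an adjusted p under 0.05 or else the 4 of smallest unadjusted p; others are said to be chosen after their values were seen. Members and lists were chosen with earlier results of these data known, so counts over them have no test. M21 names 3 further histone genes that are not analysed here.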

Additional observations from a re-analysis of the deposited data

How the results depend on the processing

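Of the values of named members under the alternatives, 285 kept direction and side of the threshold, 6 gained an adjusted p under 0.05 and 10 lost it. Before any alternative only H3c3 in HSD ICHD7 against HSD had an adjusted p under 0.05, so all 10 losses were of that call. The other values could keep their side by staying above 0.05, so the count of 285 says little about stability. Causes were not tested unless stated. Members with an adjusted p under 0.05 came to 3 for HSD against ND (otherwise 0) without ND replicate 1 and HSD replicate 2, and to 2 for HSD ICHD7 against ND ICHD7 (otherwise 0) with all 12 libraries in 1 fit. For HSD ICHD7 against HSD the 1 member became 0 with only genes above 10 CPM in 3 libraries, with background subtracted, and without either doubtful pair (ND replicate 1 and HSD replicate 2, or HSD ICHD7 replicate 3 and ND ICHD7 replicate 2, the last chosen after seeing the data). Members with an unadjusted p under 0.05 came to 4 for HSD against ND, 2 for ND ICHD7 against ND and 7 for HSD ICHD7 against HSD with all 12 libraries in 1 fit, which the interaction already uses. With background subtracted they came to 8 for HSD ICHD7 against ND ICHD7, 1 for ND ICHD7 against ND and 4 for the interaction, and by edgeR to 7 for HSD ICHD7 against HSD. Most member levels lay far above the background taken off, so these falls do not measure background in the histone values. Without ND replicate 1 and HSD replicate 2 they came to 26 for HSD against ND, 0 for ND ICHD7 against ND, 1 for HSD ICHD7 against HSD and 3 for the interaction. Without HSD ICHD7 replicate 3 and ND ICHD7 replicate 2 they came to 4 for ND ICHD7 against ND and 3 for the interaction, and the median log2 fold change of HSD ICHD7 over HSD was -0.036.

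With single libraries left out, the unadjusted counts ran between 12 and 24 for HSD against ND, 11 and 29 for HSD ICHD7 against ND ICHD7, 0 and 21 for ND ICHD7 against ND, 1 and 11 for HSD ICHD7 against HSD, and 3 and 17 for the interaction. Adjusted counts ran between 0 and 1 for ND ICHD7 against ND and for HSD ICHD7 against HSD, and the median of HSD ICHD7 over HSD between -0.036 and 0.23. Deviations from the group mean correlated between -0.191 and 0.0943 for libraries with the same replicate number. Libraries of different numbers were not compared, so whether the numbers pair the libraries was not settled. A replicate block gave 2 members with an adjusted p under 0.05 for ND ICHD7 against ND (H4c1 and H2ac14) and 8 with an unadjusted one for HSD ICHD7 against HSD. H2ac14 was named after its values were seen. Depth limits H1f6 and H2ac1 most among the members, with 0 and 18 reads in their shallowest libraries.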
